A study of Ramazzottius varieornatus with 18 samples.

Results

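The transcripts described here are the most abundant ones of Ramazzottius varieornatus juveniles. They were chosen by level: a gene was taken when only 1 transcript was predicted for it, when its mean over the 18 libraries was 1000 TPM or more, and when it was not among the named gene families that the study lists for this species. TPM gives the share of a library's transcripts that 1 transcript makes up, after division by the length that fragments can start in, so that 10000 TPM is 1% of the library. By this rule 158 of 13920 genes, or 1.14%, were members. Of all 14532 transcripts, 176 had a mean of 1000 TPM or more. The remaining 18 were 16 transcripts of the study's families, namely 7 CAHS, 4 SAHS, 3 superoxide dismutases and 2 glutathione S-transferases, and 2 transcripts of genes with several transcripts. CAHS and SAHS are heat-soluble protein families of tardigrades. Because the rule used the levels, the levels and shares below are a description and carry no test, whereas the differences between days were tested over all transcripts. These tests are not free of the rule either. Where a member reached the threshold through 1 high day, its calls into and out of that day were partly fixed by the choice.

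R. varieornatus is a terrestrial tardigrade that survives desiccation. As a member of Ecdysozoa it grows by molting, in which the old cuticle is shed and a new one is laid down. In animals a small number of genes usually supplies a large part of the messenger RNA, commonly genes for protein synthesis, metabolism and secreted or structural proteins, so the few leading transcripts set much of what a TPM value of any other gene is relative to. No name, domain or role is given to a member here, since the gene table used held a match for 0 of the 158 identifiers. Members are called by their identifiers, in which the number after the g is the number of the gene model.

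RNA came from whole juveniles of the strain YOKOZUNA-1, fed on Chlorella and kept without any treatment named in the labels. The libraries were labelled by age as Juvenile 2d, 3d, 4d, 5d, 6d and 7d, with 3 libraries for each of the 6 days and 18 in all. The study's methods speak of collection on days 3 to 7, and the labelled days were used. Nothing in the labels says that the replicates came from separate cultures, so p-values measure the spread between these libraries, which may be technical. In RNA from whole animals, fewer cells of a type and less RNA per cell cannot be told apart.

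Estimated counts summed to between 1250604 and 5095736 per library, with a median of 3700490. The smallest total was that of Juvenile 7d replicate 3 and the largest that of Juvenile 6d replicate 1. These libraries stood apart from the other replicates of their days. Over the 158 members, the median log2 difference from the other replicates was 0.66 in Juvenile 6d replicate 1 and -0.40 in Juvenile 7d replicate 3, and it was -0.54 in Juvenile 6d replicate 3. In the 12 libraries of Juvenile 2d to 5d it lay between -0.15 and 0.13. The coefficient of variation between replicates had a median over members of 5.06% at Juvenile 2d, 11.5% at 3d, 8.26% at 4d and 10.7% at 5d, but 43.9% at 6d and 23.1% at 7d. Over all tested transcripts it was 12.6% to 15.7% on Juvenile 2d to 5d, 38.2% at 6d and 26.9% at 7d. The members' median was thus below that of all tested on the first 4 days and at Juvenile 7d, and above it at 6d. Of the tested transcripts 8906 had under 100 TPM, and transcripts of a like level were not compared.

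Together the members held on average 38.4% of all TPM. The daily mean share was 42.8% ± 0.444 (SD, n = 3) at Juvenile 2d, 40.0% ± 0.909 at 3d, 37.1% ± 0.838 at 4d and 38.9% ± 1.55 at 5d. It was 37.3% ± 6.36 at Juvenile 6d and 34.5% ± 3.33 at 7d. Each library of Juvenile 2d lay above each library of Juvenile 3d, 4d, 5d and 7d, whereas Juvenile 6d spanned from 33.1% to 44.6% and overlapped every other day. The highest share, 44.6%, was in Juvenile 6d replicate 1 and the lowest, 30.7%, in Juvenile 7d replicate 3, the libraries with the largest and the smallest total count. Across the 18 libraries the share and the total count had a Pearson correlation of 0.633, and the part of the total count in the share was not tested. A single transcript, g12750.t1, held 2.59% of all TPM, the 10 members with the highest mean held 10.6%, and the leading 50 held 22.1%. The 16 transcripts of the study's families held 6.20%.

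**Figure D1:**
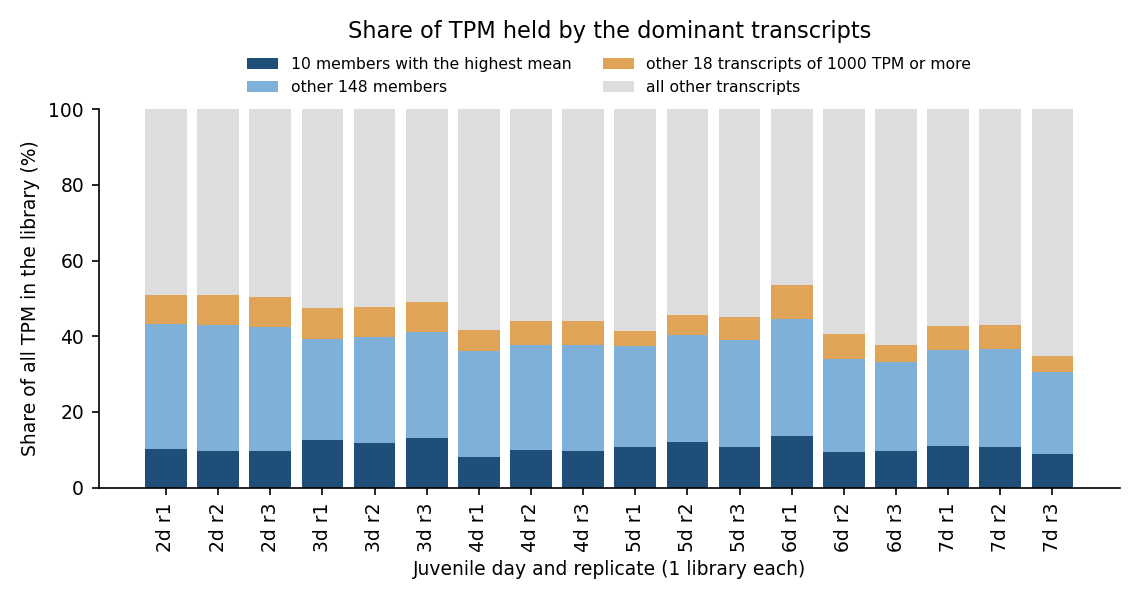
Share of all TPM (percent, vertical axis) in each of the 18 libraries (horizontal axis, day and replicate), split into the 10 members with the highest mean, the other members, the 18 other transcripts with a mean of 1000 TPM or more, and all remaining transcripts. The members' share was between 30.7% and 44.6%, with both ends in libraries of Juvenile 6d and 7d.

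The level of a member depended on the length by which it was divided. In estimated counts, before division by length, the members held 26.1% of a library on average, with a range of 18.2% to 32.2%. The coding length of the members had a median of 549 bases and ran from 339 to 2175 bases, beside a median of 1080 for all transcripts and 1302 for those tested. Of the 158 members, 87, or 55.1%, were 300 to under 600 bases long, against 19.7% of all transcripts. A further 64 were 600 to under 1200 bases long, 7 were 1200 bases or longer, and 0 were under 300 bases. Members chosen by TPM were thus short coding sequences in the main, and the long sequences of 1200 bases or more, 44.4% of all transcripts, were rare among them. How short they were depended on the length used in the rule, as given below.

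**Figure D2:**
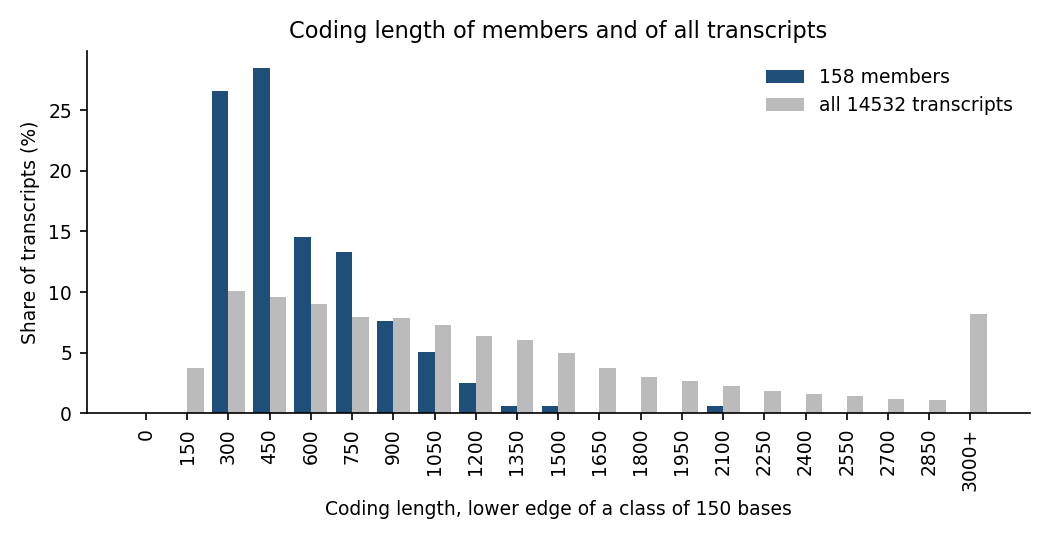
Share of transcripts (percent, vertical axis) by coding length in classes of 150 bases (horizontal axis, lower edge of the class, the last class open), for the 158 members and for all 14532 transcripts. The members gather between 300 and 600 bases, where 55.1% of them and 19.7% of all transcripts lie.

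TPM from kallisto is divided by the effective length, the number of positions at which a fragment of the set mean of 350 bases can start, and this shortens short transcripts most. The median effective length of the members was 200 bases, which was 36.4% of the coding length at the median and ranged from 10.9% to 85.4% of it. For 41 members it was under 100 bases, and 8 members were shorter than the set fragment length. The study's methods give a size selection of the libraries for 200 bases, which differs from the set mean of 350. Levels under another fragment length were not computed. The shortest were g12076.t1 with 339 bases and g3595.t1 and g5905.t1 with 345 bases each. g12076.t1 had a mean of 1251 TPM from an effective length of 36.8 bases and only 98.7 CPM (its share of the counts with no division by length). The longest, g4501.t1 with 2175 bases, had nearly the same level of 1028 TPM with 4060 CPM. Over the members the logarithm of length had a correlation of 0.85 with the logarithm of CPM and of 0.00 with that of TPM. The members were chosen by TPM, which is divided by effective length, and CPM is not, so these values only describe the chosen set.

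When the counts were divided by the whole coding length instead, 132 genes reached 1000 on the same scale and 109 of the 158 members were among them. The 49 members that dropped out were 339 to 576 bases long, with a median of 414 bases, and the 23 genes that came in were 738 to 2796 bases long. The 132 genes had a median of 783 bases, against 549 for the members and 1080 for all transcripts. By that measure the 158 members held 33.6% of the total. g12750.t1 was the leading transcript by either length, and 6 of the 10 leading transcripts were shared. Membership of these 49 genes therefore rested on the effective length.

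The members' levels ran from 1007 to 25893 TPM with a median of 1792 TPM, beside a median of 7.24 TPM for all transcripts. Only 9 members had a mean of 5000 TPM or more and 4 had 10000 TPM or more. Just inside the threshold were g13358.t1 with 1016, g2553.t1 with 1008 and g6160.t1 with 1007 TPM. Just outside it were g5333.t1 with 995, g11297.t1 with 992 and g290.t1 with 988 TPM. A high mean did not imply a high level on every day: 70 members had a daily mean of 1000 TPM or more on all 6 days, 88 fell below it on at least 1 day and 4 reached it on 1 day only. In each single library 43 members were at 1000 TPM or more throughout.

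The leading transcript, g12750.t1, is 861 bases long and had a mean of 25893 TPM. Its libraries held 31157, 30080 and 32359 TPM at Juvenile 2d, 41953, 30876 and 43786 at 3d, and 12972, 18446 and 18740 at 4d. They held 4088, 5039 and 6990 TPM at Juvenile 5d, 39136, 29552 and 23670 at 6d, and 31923, 32217 and 33090 at 7d. All 3 libraries of Juvenile 5d were below every other library, and those of Juvenile 4d were below every library of 2d, 3d, 6d and 7d. In the edgeR fit, with p-values adjusted by Benjamini-Hochberg over all tested transcripts, it was lower at Juvenile 4d than at 3d by a log2 fold change of -1.31 (SE 0.34, adjusted p = 0.0213), lower again at 5d than at 4d (-1.41, SE 0.34, adjusted p = 0.00748) and higher at 6d than at 5d (2.42, SE 0.35, adjusted p = 0.00185). Omitting Juvenile 3d replicate 1, its replicate 3 or Juvenile 4d replicate 1 ended the first of these calls, and the last was lost when only the libraries of the 2 days entered the fit.

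The second transcript, g8852.t1 with 843 bases, was also high at Juvenile 2d but was highest at 5d. It had 34519, 26083 and 23524 TPM at Juvenile 2d, 2458, 2332 and 3678 at 3d, and 137, 372 and 4834 at 4d. At Juvenile 5d it had 52825, 63249 and 46878 TPM, at 6d 15287, 11900 and 13064, and at 7d 707, 1305 and 7463. Each library of Juvenile 5d was above every other library, and the 3 of Juvenile 2d came next. Its level was lower at Juvenile 3d than at 2d (log2 fold change -3.47, SE 1.07, adjusted p = 0.0278) and higher at 5d than at 4d (4.90, SE 1.15, adjusted p = 0.00616, the highest called value of that step among members). The first call was lost without any 1 of the 6 libraries of Juvenile 2d and 3d. At Juvenile 5d g8852.t1 was thus the leading transcript while g12750.t1 was at its lowest, with a daily mean of 54317 ± 8287 against 5373 ± 1480 TPM (SD, n = 3).

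The third, g12459.t1, is 369 bases long and was higher on the last days. It had 6259, 6226 and 6864 TPM at Juvenile 2d, 9639, 10308 and 10556 at 3d, 6313, 10000 and 6894 at 4d, and 6903, 6263 and 6392 at 5d. At Juvenile 6d it had 14602, 19313 and 20573 TPM and at 7d 24676, 22817 and 22670. All 6 late libraries were above all others. The mean of Juvenile 6d and 7d was above that of 2d and 3d by 1.07 on the log2 scale (SE 0.14, adjusted p = 0.000137), and the call held without each of the 18 libraries and under each other setting tried.

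The fourth, g2834.t1 with 1056 bases, was at 2165, 3960 and 3409 TPM at Juvenile 2d and at 24593, 23864 and 24462 at 3d. At Juvenile 4d it had 15526, 21504 and 19043 TPM and at 5d 2643, 588 and 3120. The replicates then disagreed, with 17809, 835 and 687 TPM at Juvenile 6d and 13039, 11713 and 111 at 7d. Juvenile 3d and 4d were high in every library, and from 6d on the level differed by more than 10 times between libraries of 1 day, with the high values in Juvenile 6d replicate 1 and in 2 of the 3 libraries of Juvenile 7d.

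Among the other leading members, g12749.t1, whose number is next to that of g12750.t1, had daily means from 4321 TPM at Juvenile 4d to 13841 at 3d, and was lower at 4d than at 3d by a log2 fold change of -1.81 (SE 0.38, adjusted p = 0.00717). g8269.t1 had its lowest daily mean at Juvenile 4d, 2810 TPM against 6334 at 3d and 7155 at 5d, and both steps were called, at -1.34 (SE 0.30) and 1.52 (SE 0.30) with adjusted p of 0.00943 and 0.00220. The first of these was lost on leaving out replicate 3 of Juvenile 3d or replicate 1 of 4d. g4282.t1 was at 14845, 18416 and 15311 TPM at Juvenile 5d and at 59.4, 220 and 1939 at 4d, with a log2 fold change of 4.61 between these days (SE 0.93, adjusted p = 0.00259). g7160.t1 had the narrowest range of the 10, between 4294 and 7938 TPM over the libraries. g7188.t1 lay between 5602 and 12378 TPM on Juvenile 2d to 5d and at 609 in Juvenile 7d replicate 3. The leading 10 thus did not share a course, and their daily leaders differed.

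**Figure D3:**
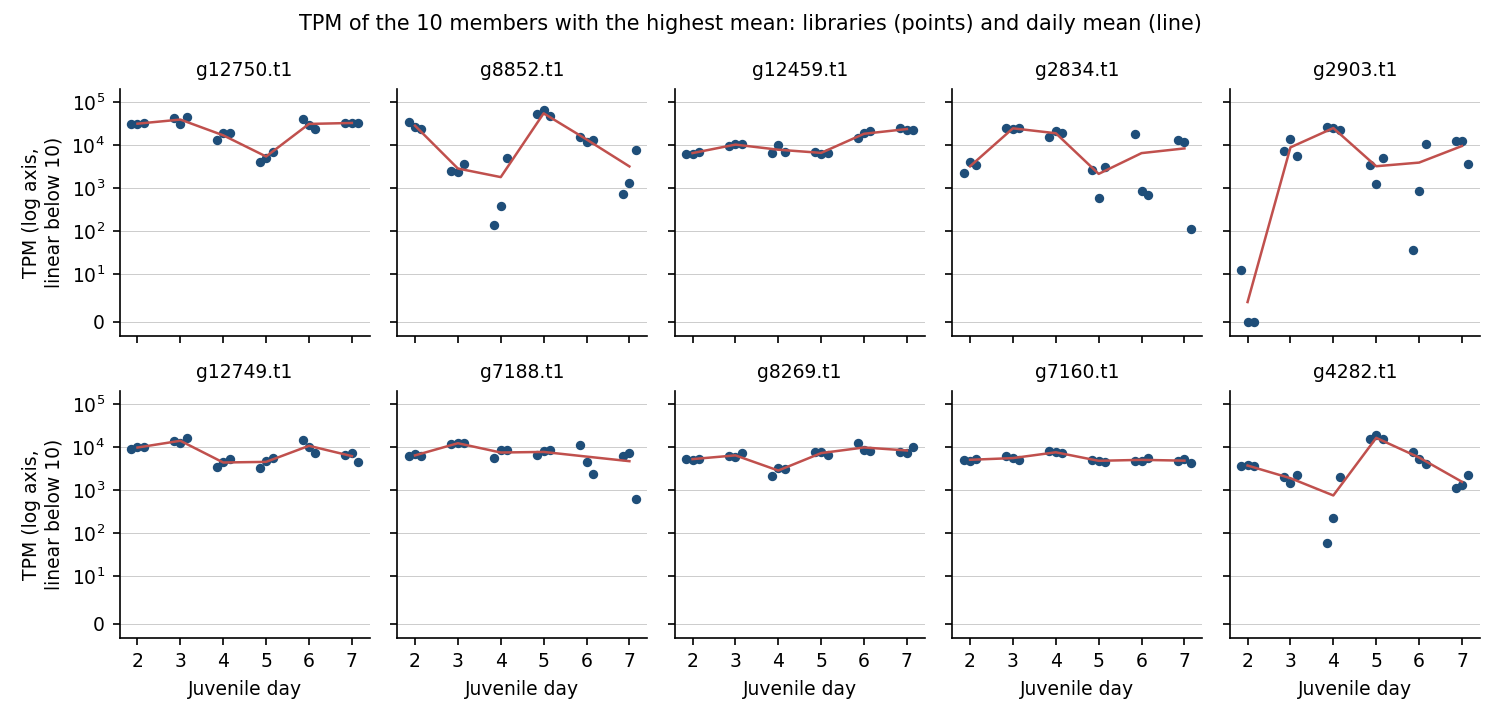
TPM of the 10 members with the highest mean (vertical axis, logarithmic and linear below 10) by juvenile day (horizontal axis), with 1 point for each library and a line through the daily means. g12750.t1 is lowest at Juvenile 5d, where g8852.t1 and g4282.t1 are highest, and g2903.t1 has 0 TPM in 2 libraries of Juvenile 2d.

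Levels differed over the days for most members. All 158 passed the filter on low counts, and 140 of them, 88.6%, differed over the 6 days at an adjusted p of up to 0.05 in edgeR's quasi-likelihood test, against 66.4% of the 10436 transcripts tested. Of transcripts with a mean of 100 to under 1000 TPM, 86.3% were called. The members' share was near that of this class. The day of the highest mean was Juvenile 2d for 75 members, 3d for 19, 4d for 20, 5d for 18, 6d for 8 and 7d for 18. Of all tested transcripts 13.7% were highest at Juvenile 2d, against 47.5% of the members, while 29.5% of the tested transcripts and 11.4% of the members were highest at 7d. The lowest mean fell on Juvenile 7d for 56 members, 35.4% against 11.9% of all tested, and on 4d for 42, 26.6% against 12.7%. It fell on 2d for 30, 19.0% against 47.5%, and on 5d for 23, 14.6% against 14.0%. For 4 it was 6d, 2.53% against 4.14%, and for 3 it was 3d, 1.90% against 9.74%.

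**Figure D4:**
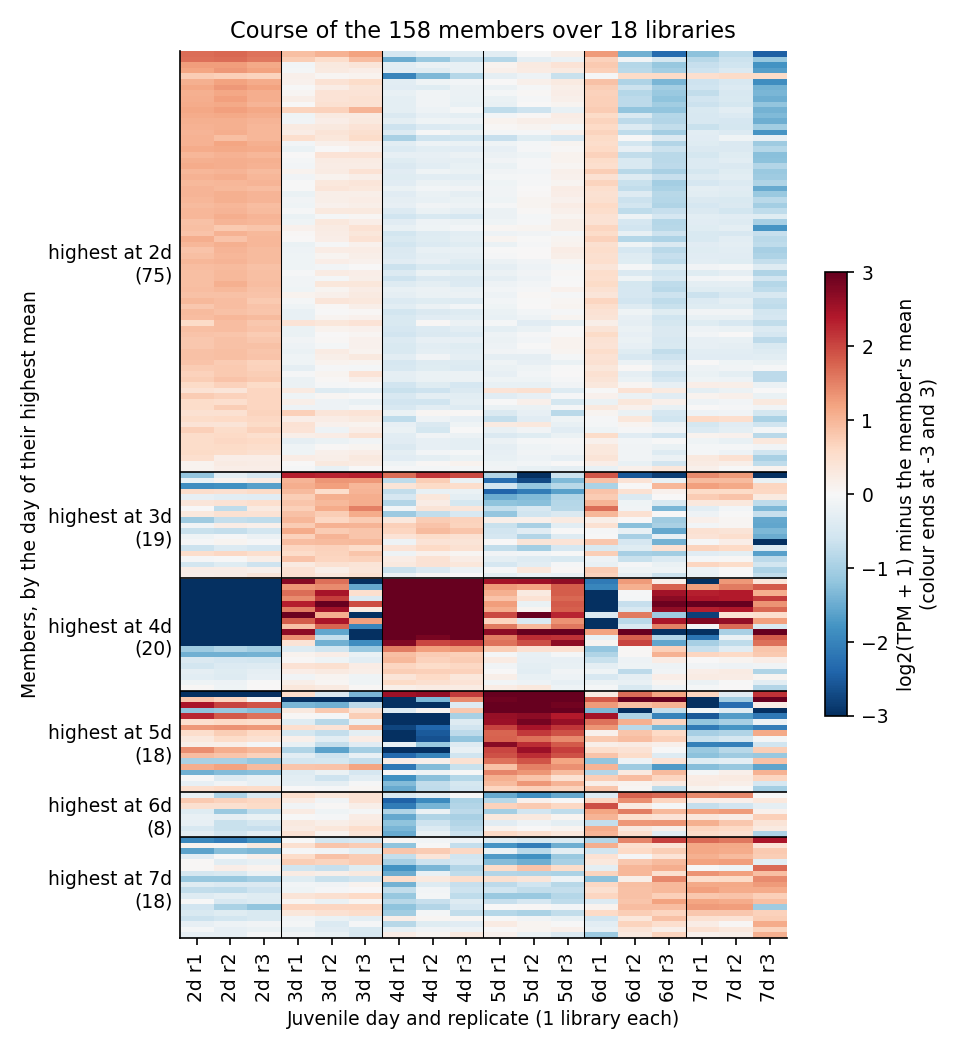
Each row is 1 of the 158 members and each column 1 of the 18 libraries, and the colour is log2(TPM + 1) minus the member's mean over the libraries. Rows are grouped by the day of the highest mean (75, 19, 20, 18, 8 and 18 members for Juvenile 2d to 7d), and the widest swings lie in the groups of Juvenile 4d and 5d.

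The largest class was that of the 75 members highest at Juvenile 2d, formed from these values and so described without a test. Their joint share of TPM was 23.9% ± 0.397 (SD, n = 3) at Juvenile 2d, 14.3% ± 1.10 at 3d, 10.2% ± 0.595 at 4d, 12.1% ± 0.681 at 5d, 12.1% ± 4.85 at 6d and 9.69% ± 1.58 at 7d. In Juvenile 6d replicate 1 they held 17.6%, more than in any library of Juvenile 3d. They were short, with a median of 498 bases and 50 of the 75 under 600 bases, and 48 were lowest at Juvenile 7d. The median correlation between members of the class over the 18 libraries was 0.88. In the classes highest at Juvenile 3d, 4d, 5d, 6d and 7d, which share a day of the highest mean in the same way, it was 0.56, 0.73, 0.62, 0.57 and 0.57. The ratio of the highest to the lowest daily mean had a median of 2.71 in this class and reached 7.97.

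Between the late days, Juvenile 6d and 7d, and the early days, Juvenile 2d and 3d, 110 members, 69.6%, were called, against 46.1% of all transcripts tested. Of these, 80 were lower late, 50.6% of the members against 18.8% of all tested and 33.2% of those with 100 to under 1000 TPM. The 30 that were higher late made up 19% of the members, against 27.2% of all tested. They include all 13 members of a group described below, which was picked for near absence at Juvenile 2d. The median log2 fold change was -0.59 over the members and 0.09 over all transcripts tested. Of the 18 other transcripts with a mean of 1000 TPM or more, 50% were lower and 11.1% higher late, with a median of -0.61. With upper quartile scaling 22.3% of all tested were higher and 23.5% lower, with medians of -0.70 for the members and -0.03 for all, and 28 members were higher and 86 lower. In limma on log2(TPM + 1) 33.9% of all tested were higher and 13% lower, with medians of -0.47 and 0.27, and 37 members were higher and 74 lower. The members thus lay below the median of all transcripts under each of these scalings.

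**Figure D5:**
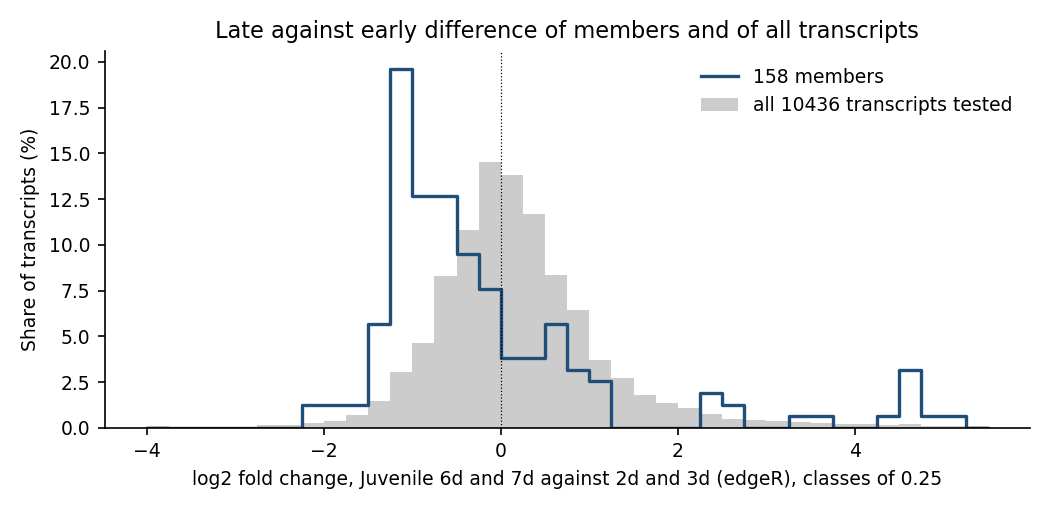
Share of transcripts (percent, vertical axis) by the edgeR log2 fold change of Juvenile 6d and 7d against 2d and 3d (horizontal axis, classes of 0.25), for the 158 members (line) and all 10436 transcripts tested (bars; 72 lie outside the plotted range). The members' median is -0.59 and that of all tested is 0.09, and a small group of members lies above 2.

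The calls did not mean that libraries were separate. In TPM all 6 late libraries were below all 6 early ones for 3 of the 158 members, against 280 of the 10436 tested, or 2.68%. They were above them for 7 of the 158, against 255, or 2.44%. Both rest on few members. Juvenile 6d replicate 1 was then left out, a setting chosen after seeing the data. The 5 other late libraries were below the early ones for 57 of the 158 members, against 804 of all tested, or 7.7%. They were above them for 18 of the 158, against 2535, or 24.3%. The 57 were thus a larger share than that of all tested and the 18 a smaller one. Of the 87 members under 600 bases 50 were lower late, and of the 71 longer ones 30 were. Over all tested transcripts, 26.0% of those under 600 bases and 17.7% of the longer ones were lower late, so length and the late decline moved together. The part of length in the decline was not tested.

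The members with the lowest called difference were g8991.t1, g2930.t1, g6160.t1, g289.t1 and g8780.t1, with log2 fold changes between -2.15 and -1.70. g8991.t1 had 3747, 3840 and 3624 TPM at Juvenile 2d, 2177, 2432 and 2729 at 3d, 822, 962 and 941 at 4d, and 946, 1156 and 1320 at 5d. At Juvenile 6d it had 2842, 429 and 236 TPM and at 7d 502, 691 and 214. It fell by 2.15 on the log2 scale (SE 0.53, adjusted p = 0.00506), and 5 of its 6 late libraries were below every early library, with Juvenile 6d replicate 1 above all of Juvenile 3d. The call was lost in DESeq2 alone and held without each of the 18 libraries.

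g289.t1 stood at 5453, 5545 and 5217 TPM at Juvenile 2d, 2909, 2513 and 3288 at 3d, and 620, 797 and 1044 at 4d. It was at 957, 1438 and 1542 TPM at Juvenile 5d, 2779, 1629 and 1209 at 6d and 971, 1112 and 793 at 7d. Its late value was lower by a log2 fold change of -1.77 (SE 0.28, adjusted p = 0.000405), and all libraries from Juvenile 4d on, except Juvenile 6d replicate 1, were below those of 2d and 3d. g8780.t1 was called at -1.70 (SE 0.67, adjusted p = 0.0492), a call that remained in 3 of the 18 fits that left out a library and was lost without each of Juvenile 2d replicate 1, 2 and 3, 3d replicate 1, 2 and 3, 4d replicate 2, 5d replicate 1, 2 and 3, 6d replicate 2 and 3, and 7d replicate 1, 2 and 3.

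From day to day the number of calls differed between steps. Between Juvenile 2d and 3d 71 members were called, 44.9% against 25.8% of all tested and 33.8% of those with 100 to under 1000 TPM. Of these, 20 were higher, 12.7% of the members against 14% of all tested and 13% of that class. The 51 lower ones were 32.3%, against 11.8% and 20.8%. Of the 20 higher, 12 belong to the group picked below for near absence at Juvenile 2d. From 3d to 4d 29 members were called, 18.4% against 12.5% of all tested and 18.5% of that class. The 6 higher were 3.8% of the members, against 7.17% of all tested and 5.39% of the class. The 23 lower were 14.6%, against 5.37% and 13.1%, so near the share of the class. From 4d to 5d 39 were called, 24.7% against 24.8% of all tested and 32.7% of that class. The total was thus at the background of all tested and below that of the class. The 26 higher were 16.5%, against 13% of all tested and 19.9% of the class, and the 13 lower 8.23%, against 11.9% and 12.9%. From 5d to 6d 22 were called, 13.9% against 8.63% of all tested and 13.7% of that class. The 15 higher were 9.49%, against 4.91% of all tested and 9.53% of the class. The 7 lower were 4.43%, against 3.73% and 4.21%, so both directions were near the share of the class. From 6d to 7d edgeR called 0 members and 0 of all tested (a background of 0%), with 23 members and 1059 transcripts at an unadjusted p under 0.05. DESeq2 called 5 members and 55 transcripts in that step, and limma 0 of both. No step was called for 47 members, 1 for 68, 2 for 36 and 3 for 7.

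These step counts depended on single libraries, and the cause was not tested. Without Juvenile 6d replicate 1 the 4 steps from 2d to 6d had 99, 94, 82 and 78 calls among members. Of all 10584 transcripts tested in that fit, 3656, 2265, 3497 and 2809 were called. The first step had 27, 30 and 46 without Juvenile 3d replicate 1, 2 and 3, with 1665, 1676 and 2088 calls over all tested. It had 37, 34 and 36 without Juvenile 2d replicate 1, 2 and 3, with 1890, 1731 and 1687 over all tested. Omitting replicate 3 of Juvenile 3d left 9 in the second step and omitting replicate 1 of 4d left 10, beside 490 and 534 over all tested. The fourth had 14 without Juvenile 5d replicate 1, beside 253 over all tested. The last had 17 when replicate 3 of Juvenile 6d was left out and 1 when that of 7d was, beside 446 and 47. In a fit on only the libraries of Juvenile 2d to 5d, the first 3 steps had 119, 128 and 111 calls among the members. Of all tested, 44.5%, 33.2% and 43.9% were called there, so the calls over all transcripts moved with the libraries too. The first step thus had the most calls among members with all libraries in the fit, whereas the second had the most in that fit. The second also had the most without both Juvenile 6d replicate 1 and 7d replicate 3, at 127 against 118. Of all tested, 31.1% were called in the second step there and 43.1% in the first.

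A group of 13 members was almost absent at Juvenile 2d and reached its height later. It was picked after seeing the values, by a daily mean under 50 TPM at Juvenile 2d, and holds g2903.t1, g7694.t1, g5171.t1, g7563.t1, g5828.t1, g7701.t1, g592.t1, g718.t1, g2902.t1, g2957.t1, g8474.t1, g4462.t1 and g6040.t1. Their libraries had at most 49.3 TPM and 54 estimated counts each at Juvenile 2d, and at least 1859 TPM and 500 counts at 4d. The joint share of the 13 was 0.00947% of TPM at Juvenile 2d, 2.16% at 3d, 11.3% at 4d, 3.01% at 5d, 1.59% at 6d and 2.65% at 7d. So 13 of 13920 genes made up 11.3% of TPM at Juvenile 4d and next to nothing at 2d, and 12 of the 13 were highest at Juvenile 4d. With g7701.t1, the last of them, the height fell on 5d. Coding lengths ran from 348 to 1326 bases with a median of 603, so the group was not made of the shortest members.

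The most abundant of the group, g2903.t1 with 378 bases, had 12.3, 0 and 0 TPM at Juvenile 2d and 7179, 13698 and 5413 at 3d. At Juvenile 4d it had 25984, 25383 and 22702 TPM, at 5d 3353, 1220 and 4996, at 6d 36, 864 and 10726, and at 7d 12529, 12203 and 3538. Juvenile 2d was below every other library, and Juvenile 4d above every other. The counts behind Juvenile 2d were 4, 0 and 0, so no fold is given for the rise, which was the highest called value of that step. That call restates the choice of the group. At Juvenile 6d the 3 libraries spanned from 36 to 10726 TPM, with the low value in replicate 1, the library in which the members as a whole were high.

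g7563.t1, with 1326 bases, followed the same order. It had 1.28, 1.84 and 1.21 TPM at Juvenile 2d, 1746, 3029 and 776 at 3d, and 11198, 8695 and 8419 at 4d. At Juvenile 5d it had 1137, 651 and 1919 TPM, at 6d 16.6, 528 and 3110 and at 7d 2735, 2841 and 1152. Again Juvenile 4d stood above and Juvenile 2d below all other libraries, and replicate 1 was the lowest at 6d. g718.t1 went from 641, 1170 and 89.4 TPM at Juvenile 3d to 9633, 8544 and 8459 at 4d, a log2 fold change of 3.66 (SE 1.03, adjusted p = 0.0312), and came to 1028, 681 and 1045 at 5d (-3.09, SE 1.00, adjusted p = 0.0355). These were the highest and the lowest called value of their steps. The daily mean of g718.t1 was 8878 TPM at Juvenile 4d and at most 918 TPM on any other day. It thus passed the rule through Juvenile 4d, and both calls partly restate that choice. Omitting replicate 1 or 3 of Juvenile 3d, or any 1 library of 4d, ended the call of the rise, and the fall without any 1 library of Juvenile 4d or 5d.

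Within the group g4462.t1 had the lowest start, at 0.946, 0 and 0.65 TPM at Juvenile 2d, and 6525, 4644 and 4815 TPM at 4d. It was later at 759, 719 and 1115 TPM at Juvenile 5d, 79.7, 658 and 1070 at 6d, and 750, 929 and 1125 at 7d. g7701.t1 rose over 3 days, from 966, 500 and 260 TPM at Juvenile 3d to 3957, 4200 and 2887 at 4d (2.52, SE 0.59, adjusted p = 0.0118) and 9030, 6624 and 7883 TPM at 5d, and its 6d value was lower than that of 5d by a log2 fold change of -2.51 (SE 0.58, adjusted p = 0.0191). The first call was lost on leaving out replicate 2 or 3 of Juvenile 3d, and the second on leaving out replicate 1 of 5d or replicate 3 of 6d and in the fit of the 2 days alone. Since the 13 members were picked for their near absence at Juvenile 2d, their calls against that day and against the early days restate the choice. They are no support for the group, although the totals above include them. Those totals hold 13 of the group among the members higher late and 12 among those higher at 3d than at 2d. The size of their fitted late difference is not printed.

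A second pattern was a low on Juvenile 4d. Lower at 4d than at 3d and higher again at 5d, both by call, were 9 members, g8269.t1, g3140.t1, g4113.t1, g2930.t1, g1054.t1, g4843.t1, g9761.t1, g13358.t1 and g6160.t1, a set formed from the calls. Both calls were also made for 2.91% of all transcripts tested. The joint share of the 9 was 2.00% ± 0.203 (SD, n = 3) of TPM at Juvenile 3d, 0.798% ± 0.214 at 4d and 2.85% ± 0.231 at 5d, a course that the choice of the set fixed. The calls of single members in these steps, here and in the next paragraph, restate that choice and are no support for the set. g2930.t1, with 936 bases, had 2718, 2779 and 2714 TPM at Juvenile 2d, 1549, 1466 and 2173 at 3d, 163, 211 and 739 at 4d and 4490, 6083 and 4872 at 5d. At Juvenile 6d it had 2772, 631 and 427 TPM and at 7d 253, 322 and 261. Its rise from 4d to 5d was 3.95 on the log2 scale (SE 0.77, adjusted p = 0.00208), and its late value was below the early one by -2.01 (SE 0.50, adjusted p = 0.00529).

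g6160.t1, the member nearest to the threshold, had the lowest called value from Juvenile 3d to 4d, with 1312, 1313 and 1674 TPM at 3d and 163, 298 and 456 at 4d (-2.39, SE 0.65, adjusted p = 0.0256). It rose to 1342, 2077 and 1907 TPM at Juvenile 5d (2.71, SE 0.65, adjusted p = 0.00743). Juvenile 4d was below both days in every library, and the first call ended on omitting replicate 3 of Juvenile 3d, or replicate 1 or 2 of 4d. g13358.t1 had a smaller dip, by -1.61 (SE 0.24, adjusted p = 0.00111) and back by 1.16 (SE 0.24, adjusted p = 0.00295), and both calls held without each of the 18 libraries.

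The 18 members highest at Juvenile 5d held 14.1% ± 1.66 (SD, n = 3) of TPM on that day, against 1.51% ± 0.663 at 4d and 4.53% ± 0.560 at 6d. The class was formed from these values, so a highest share at Juvenile 5d was fixed by the choice. g8852.t1 was the largest of them. g12705.t1, with 981 bases, had 562, 776 and 1282 TPM at Juvenile 4d, 8575, 9415 and 6340 at 5d and 285, 88.9 and 442 at 6d. It rose by 3.36 (SE 0.68, adjusted p = 0.00249) and then had the lowest called value from 5d to 6d, -4.93 (SE 0.73, adjusted p = 0.00204), on the log2 scale. The 3 libraries of Juvenile 5d were above all others, and the second call was lost when only the libraries of the 2 days were fitted. The daily mean of g12705.t1 was 8110 TPM at Juvenile 5d and at most 1035 TPM on any other day. It thus passed the rule through Juvenile 5d, and both calls partly restate the choice.

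g3881.t1, with 636 bases, was the remaining member with a daily mean under 50 TPM, at Juvenile 3d. It had 518, 461 and 282 TPM at Juvenile 2d and 22.4, 10.6 and 3.93 at 3d, the lowest called value of that step (-5.40, SE 1.81, adjusted p = 0.0396), and 2248, 5971 and 5888 TPM at 5d. The call was lost without any 1 library of Juvenile 2d or 3d, without Juvenile 5d replicate 2, and in limma. The level at Juvenile 7d was 22, 143 and 3738 TPM, with the high value in replicate 3. Its replicates at Juvenile 4d, with 0.926, 116 and 791 TPM, were also far apart.

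The 18 members highest at Juvenile 7d held 3.11% ± 0.0996 (SD, n = 3) of TPM at 2d, 4.70% ± 0.0996 at 3d, 3.33% ± 0.521 at 4d, 3.02% ± 0.107 at 5d, 6.75% ± 1.59 at 6d and 8.50% ± 0.247 at 7d. This class too was formed from these values, so its highest share at Juvenile 7d was fixed by the choice. g12459.t1 was the most abundant. g4159.t1, with 804 bases, is not of this class, with a daily mean of 2119 TPM at 6d against 1822 at 7d. It had the highest called value from 5d to 6d among all members (2.72, SE 0.42, adjusted p = 0.00267). Its libraries were at 300, 239 and 297 TPM at Juvenile 5d, 653, 2921 and 2783 at 6d, and 2290, 2322 and 854 at 7d. The 6d and 7d libraries were all above those of 5d, and the call was lost in the fit of the 2 days alone. Of the class, the pair g297.t1 and g300.t1, of 1515 and 750 bases, was higher at 6d than at 5d. The log2 fold changes were 1.45 (SE 0.27, adjusted p = 0.00615) and 1.70 (SE 0.27, adjusted p = 0.00299), again not in the fit of the 2 days alone.

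The steadiest members by the ratio of the highest to the lowest daily mean were g4820.t1 with 1.29, g10155.t1 with 1.29 and g2934.t1 with 1.39. g4820.t1 had daily means between 1168 and 1505 TPM, and a difference over the days was still called (adjusted p = 0.00461). For g10155.t1 and g2934.t1 it was not (adjusted p = 0.279 and 0.187), and their replicates spread widely at Juvenile 7d, with means of 1174 ± 399 and 2875 ± 878 TPM (SD, n = 3). The widest ratios were those of g592.t1, g4462.t1 and g7563.t1, all from the group almost absent at Juvenile 2d, where a few counts decide the ratio. Members that hardly varied and members that were almost absent on a day thus both passed the rule.

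Some members have neighbouring numbers. No run of 3 or more members had numbers within 3 of each other, but 14 pairs did, and the number was taken as a name only, since no position on the genome was used. The correlation of the pairs over the 18 libraries had a median of 0.64, against 0.13 over all pairs of members, and ranged from -0.72 to 0.99. The closest were g297.t1 and g300.t1 with 0.99, g2902.t1 and g2903.t1 with 0.99, g3243.t1 and g3245.t1 with 0.99 and g6506.t1 and g6508.t1 with 0.90. g12749.t1 and g12750.t1 had 0.74. At the other end g4462.t1, almost absent at Juvenile 2d, and its neighbour g4463.t1, highest at 2d, had -0.72. All points share the libraries and their totals. The pairs were looked at after their values were seen.

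For 10 members the estimated count was not whole in 10 to 17 of the libraries, at a tolerance of 1e-06, which means that some reads were divided between similar transcripts. They were g8852.t1, g12749.t1, g7160.t1, g2934.t1, g5171.t1, g297.t1, g300.t1, g8780.t1, g2957.t1 and g8474.t1. Their levels are uncertain to the extent of that division. The closely correlated pair g297.t1 and g300.t1 is among them, with 16 libraries each, and g2957.t1 and g8474.t1 are both 603 bases long. In Juvenile 4d replicate 1 g8852.t1 had 504.843 and g8780.t1 227.157 estimated counts, fractions that complete a whole number. So did 23817.7 of g7160.t1 and 17031.3 of g2934.t1 in Juvenile 2d replicate 1. For g2957.t1 and g8474.t1 this held for 553.742 and 939.258 in Juvenile 3d replicate 2. It did not hold for 2645.87 and 3852.92 in replicate 1 of that day. Whether reads were divided between the members of any of these pairs was not tested.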

How the data were processed

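The authors amplified cDNA with SMARTer, sequenced it single-end without molecular identifiers, and used kallisto on predicted coding sequences with a set fragment length of 350. The submitters' processing notes name kallisto 0.42.4 and 0.44.0. The authors deposited estimated counts, not normalized, and TPM, which divides them by effective length; counts were whole for 91.9% to 94.1% of transcripts. Per the file headers no genome build is given, and no member matched the gene table (assembly Rvar_4.0, 23164 genes).

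Counts rounded to whole numbers entered a quasi-likelihood F test (edgeR 4.0.16, R 4.3.3) of all 18 libraries with day as the only term, after filterByExpr with a minimum count of 10 and TMM scaling, with Benjamini-Hochberg adjustment over 10436 transcripts. A standard error is the size of a log2 fold change over the root of its F. DESeq2 1.42.0 and limma 3.58.1 were alternatives. The edgeR steps were tested on simulated data. Levels and figures used Python 3.11.15 with pandas 2.3.3, numpy 2.4.6 and matplotlib 3.10.9.

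A count of 0 allows up to 3 counts, or 0.589 to 2.40 CPM, for counting error only. Members and lists were chosen with earlier results of these data known. Named members are the 10 with the highest mean, the 5 highest and 5 lowest called late against early, the highest and lowest called of each step, 3 on each side of the threshold, the 3 widest and 3 steadiest, the 3 shortest and 3 longest, and those with counts that were not whole; others are said to be chosen after their values were seen. The study's list of named families served only to leave its genes out. Counts from another mapping, which the study used for its own tests, were not analysed here.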

Additional observations from a re-analysis of the deposited data

How the results depend on the processing

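The counts over all days and between late and early days stayed within 1.5 times their value under each setting tried. Leaving out 1 library gave 131 to 153 members that differed over the days, 26 to 33 higher late, 68 to 99 lower late, 27 to 99, 9 to 94, 26 to 82, 14 to 78 and 0 to 17 called in the 5 successive steps, 157 to 162 members and a share of 38.1% to 39.1%. Over all tested, 10551 to 10590 transcripts in these fits, late against early had 4163 to 5791 calls. The 5 steps had 1665 to 3656, 490 to 2265, 1640 to 3497, 253 to 2809 and 0 to 446 over all tested. The first 3 steps had 135, 103 and 84 calls when only the libraries of their 2 days were fitted, against 48.9%, 30.5% and 38.5% of all tested. With only those of Juvenile 2d to 5d they had 119, 128 and 111, against 44.5%, 33.2% and 43.9%. The fourth had 0 with its 2 days only, against 0.102% of all tested. Without both Juvenile 6d replicate 1 and Juvenile 7d replicate 3, a setting chosen after seeing the data, as was that of Juvenile 2d to 5d, the 5 steps had 118, 127, 107, 94 and 13 calls. Of all tested, 43.1%, 31.1%, 42.4%, 35.5% and 5.19% were called in that fit. DESeq2 had 45 calls from 3d to 4d and 5 from 6d to 7d, against 16.6% and 0.527% of all tested. The cause was not tested.

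A threshold of 500 TPM gave 308 members with 49.1% of TPM, and 2000 TPM gave 65 with 25.2%. Asking for 1000 TPM in every library gave 43 members with 15.6%, a median of 1000 TPM a share of 35.2%, the whole coding length 33.1%, and the study's families included 44.6%.

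Replicate numbers did not pair the libraries: deviations of same-numbered libraries had a median correlation of -0.03 (-0.37 to 0.22), and 1 of 18 libraries correlated best with its own number. With the replicate block, 136 members differed over the days, 28 were higher and 76 lower late, and the steps had 54, 24, 32, 19 and 0 calls. Of all tested, 62.7% differed, 25.6% were higher and 18.2% lower late. The steps called 23%, 10.3%, 22.1%, 6.39% and 0% of them.

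The late against early difference of 36 of 39 named members kept its sign. Those that changed sign were near 0 and not called. g4282.t1, at -0.05, became 0.12 in all 3 limma fits and ran from -0.34 to 0.10 without 1 library. In limma on log2(TPM + 1), log2(TPM + 0.1) and log2(TPM + 10), g13358.t1 became 0.0558, 0.0558 and 0.0553 and g4820.t1 0.0444, 0.0444 and 0.0441.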
